A study of Mus musculus with 4 samples.

Results

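Lipid droplet storage and lipolysis genes were examined as a set of 10 named genes, Plin1, Plin2, Plin3, Plin4, Plin5, Cidec, Dgat1, Dgat2, Lipe and Pnpla2, in single-cell RNA sequencing of mouse endosteal bone marrow. All 10 were listed in every table, among 26600 genes that the 4 tables shared and 32453 listed in any of them. The question was which of these genes were present and which were absent in Adipoq-expressing stromal cells and in the other cells of each library.

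A lipid droplet is a store of triacylglycerol enclosed by a coat of proteins, most of them perilipins. Dgat1 and Dgat2 make the triacylglycerol in the last step of its synthesis, and Pnpla2 (adipose triglyceride lipase) and Lipe (hormone-sensitive lipase) break it down to fatty acids. Plin1, Plin4 and Cidec are characteristic of fat-storing adipocytes, Plin5 of tissues that burn fatty acids, and Plin2 and Plin3 of many cell types.

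Cells came from male Col2:Td mice of the B6SJL/F1 strain. In these mice Cre recombinase under a Col2 promoter switches on the tdTomato (Td) reporter, so a cell is labelled when it or an ancestor was active at that promoter. Every library carried the same alleles, and none had a treatment. There was 1 library per age, made from 2 pooled mice for the 1 month library and from 3 for each later one. Bone fragments were digested and sorted either for a Td peak or for the brightest Td cells, and the labels do not tell which gate each library had. Cells filled with a large droplet float and are fragile, so that this preparation collects them poorly.

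The tables held 8417, 5745, 4516 and 9229 barcodes at 1, 1.5, 3 and 16 months, of which 8308, 5453, 4180 and 6143 passed the filter. Total unique molecular identifiers (UMIs, 1 per captured RNA molecule) ranged from 32672631 to 108227184 per library. Blood lineages were 68.6%, 3.03%, 31.1% and 12.4% of the kept cells in the same order. Between 30 and 61 barcodes were shared by any 2 of the libraries from 1 to 3 months, and 1 or 2 by each of these with the 16 month library. Because age and library coincide, an age difference cannot be told apart from a difference between preparations, and no test of age was possible.

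Clusters were named from marker lists, with the 10 genes kept out of the clustering. The AD-like class (Adipoq stromal cells) held 315, 1231, 424 and 3582 cells at 1, 1.5, 3 and 16 months. Its 10 naming markers, among them Adipoq, Lepr, Cxcl12, Kitl and Esm1, were all higher there than in the other mesenchymal cells in each library. Adipoq itself stood at 1466, 3036, 1632 and 1560 CPM (UMIs of the gene per 1000000 UMIs of the class), against 9.22, 92.6, 36.4 and 191 in the other mesenchymal cells. Ptprc, which marks blood cells, was at 28.6 CPM in the AD-like cells at 1 month and at 0 to 1.10 in the later libraries. The comparison cells were early (EMP) and late (LMP) mesenchymal progenitors, osteoblasts (OB), osteocytes (Ocy) and unnamed mesenchymal clusters of the same library, 1606, 1954, 1234 and 1536 cells, without chondrocytes (CH). At 16 months the unnamed clusters of 252 and 144 cells met the criteria for all 10 AD-like markers. They were poor in RNA, with 0.139 and 0.076 of the median UMIs of the kept cells. The EMP-like cluster of 16 months (200 cells) also met the criteria for all 10 AD-like markers, beside those for 5 EMP markers. Adipoq was also found at 8.34, 73.8, 17.3 and 190 CPM in neutrophil-like cells at 1, 1.5, 3 and 16 months, although these cells should lack it. Whether free RNA or barcodes with more than 1 cell gave these counts was not tested.

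The sequences before the start of Plin1 and Plin2 are shown because the first of these perilipins was nearly absent from AD-like cells and the second was the most abundant of the 5. They are RefSeq sequences of GRCm38.p6 on the minus strand, 5′ to 3′, ending at the base before the annotated gene, and the Plin1 stretch is the shorter because its annotated start lies upstream of the RefSeq start. Capitals mark AGGTCA or its reverse complement TGACCT, the motif that nuclear receptors such as Pparg bind, usually in pairs.
Plin1, chr7:79732904-79733026: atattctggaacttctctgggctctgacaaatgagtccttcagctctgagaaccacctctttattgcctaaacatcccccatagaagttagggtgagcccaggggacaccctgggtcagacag
Plin2, chr4:86670061-86670309: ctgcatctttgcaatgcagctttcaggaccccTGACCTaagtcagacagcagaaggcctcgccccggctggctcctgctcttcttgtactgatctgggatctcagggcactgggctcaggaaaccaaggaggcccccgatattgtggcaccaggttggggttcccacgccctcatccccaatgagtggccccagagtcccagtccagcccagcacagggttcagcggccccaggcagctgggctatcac
The motif occurred in the 250 bases before the start of 2 of the 8 members with a promoter entry, Plin2 and Plin5, and in 14.02% of all 32851 promoters. Of these, Plin5 was nearly absent from AD-like cells and Plin2 was not. A pair of AGGTCA motifs in one direction with any 1 base between them, on either strand, was in none of the 8. It was in only 0.033% of all promoters, so none would be found in nearly any 8 and its absence says nothing about these members.

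In the annotation, on GRCm38, Plin3 (chr17:56277476-56292873), Plin4 (chr17:56100591-56109803) and Plin5 (chr17:56111601-56117596) lie together on the minus strand, with Plin4 and Plin5 as neighbours. Plin1 (chr7:79720218-79732903), Lipe (chr7:25379527-25398710), Dgat2 (chr7:99153658-99182719) and Pnpla2 (chr7:141455198-141460743) share a chromosome, and Pnpla2 is the only member on the plus strand. Plin2 (chr4:86648386-86670060), Cidec (chr6:113424634-113435760) and Dgat1 (chr15:76502015-76511953) are elsewhere.

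The members fell into genes that were measurable in mesenchymal cells and genes that were nearly absent. Plin2, Plin3, Dgat1, Dgat2, Lipe and Pnpla2 had at least 20 UMIs over the mesenchymal cells of every library, and Plin1, Plin4, Plin5 and Cidec did not. Among the 6, a single gene, Plin2, was at least 2-fold higher in AD-like than in other mesenchymal cells in all 4 libraries, and 0 were at least 2-fold lower. By the same rule 6.08% of 11628 genes were higher and 4.43% lower. Within single libraries the 2-fold rule was met upward by 1 of 6, 2 of 7, 2 of 6 and 2 of 7 measurable members at the successive ages, against 14.3%, 16.3%, 14.9% and 14.9% of genes. Downward it was met by 0 members in each library, against 9.48%, 12.1%, 11.7% and 10.6% of genes. The median log2 difference of the 6 was 0.34, and that of all genes tested 0.24.

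**Figure D1:**
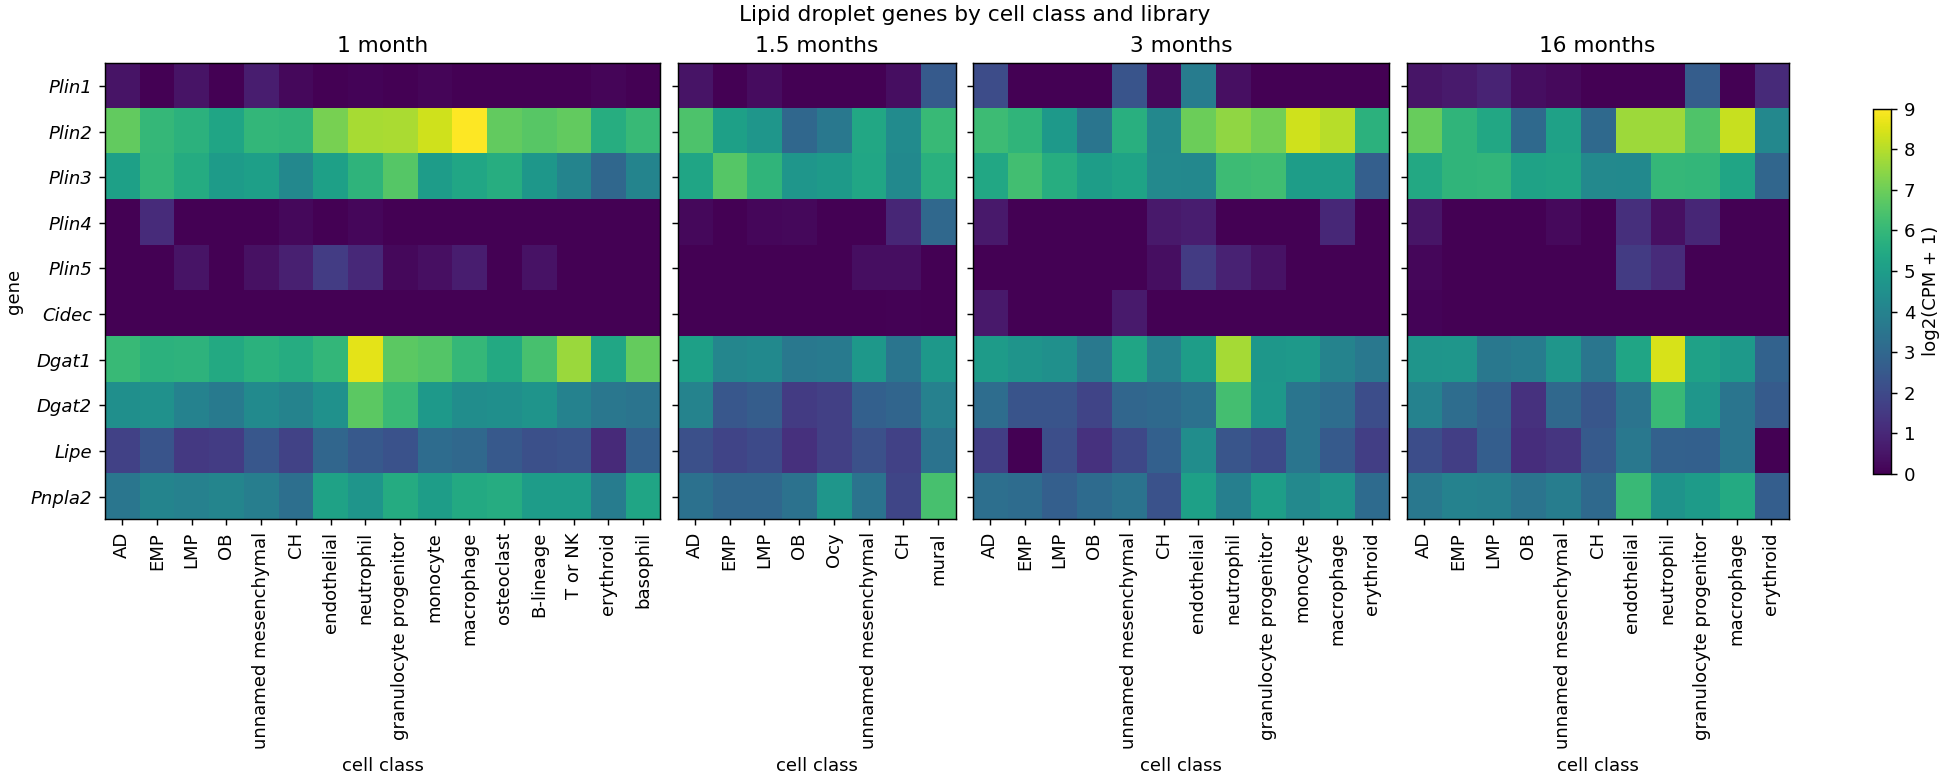
Heat map of log2(CPM + 1) for the 10 genes (rows) in each class of at least 50 cells (columns), with a panel for each library. Plin1, Plin4, Plin5 and Cidec stay dark in nearly every class, Plin2 is brightest in macrophage-like and monocyte-like cells, and Dgat1 in neutrophil-like cells.

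Plin2 coats droplets in many cell types. In AD-like cells it was at 113 CPM (95% Poisson interval 100.1 to 126) at 1 month, followed by 89.6 (83.0 to 96.6), 70.2 (58.6 to 83.5) and 119.6 (116 to 123) in the libraries of 1.5, 3 and 16 months. The other mesenchymal cells had 49.5, 22.2, 26.8 and 25.3 CPM, so the ranges did not overlap. The ratio was 2.27 (1.99 to 2.59), 4.04 (3.59 to 4.55), 2.62 (2.10 to 3.25) and 4.72 (4.29 to 5.21). These intervals, like the others given here, cover counting error only.

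Within the mesenchymal classes the order of Plin2 was AD-like above EMP-like above osteoblast-like in each library. EMP-like cells held 63.4, 33.4, 58.0 and 58.2 CPM and osteoblast-like cells 38.6, 7.04, 10.2 and 7.43. Among classes of at least 50 cells, AD-like cells had the highest Plin2 at 1.5 months, where few blood cells were caught, and ranked 7, 6 and 4 in the other libraries. Macrophage-like cells had 501, 262 and 300 CPM at 1, 3 and 16 months, and neutrophil-like cells 226, 181 and 205. Endothelial-like cells stood at 142, 125 and 205.

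Plin2 was found in a minority of AD-like cells at any one depth. At least 1 UMI was seen in 49.5%, 31.4%, 20.5% and 42.3% of them as deposited, at median depths of 7336, 5913, 3979 and 9783 UMIs. When 3000 UMIs were drawn at random from each cell (thinning), the shares were 24.4% (95% exact binomial interval 19.8 to 29.6), 19.98% (17.8 to 22.3), 16.4% (12.7 to 20.6) and 21.1% (19.8 to 22.5). Thinning left out 58 AD-like cells at 3 months, 60 at 16 months and 0 in the others. Erythroid-like cells, where the gene was lowest among blood cells, had 9.72%, 9.18% and 4.19% at 1, 3 and 16 months after the same thinning. The most Plin2 UMIs in a single AD-like cell were 9, 19, 22 and 60. With thinning, the log2 difference from the other mesenchymal cells at 3 months was 0.98, just under 2-fold. With median-of-ratios size factors in place of total UMIs it was 0.89 at 1 month, and either setting ended the call in all 4 libraries.

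Plin3, a perilipin of the cytosol that moves to new droplets, did not separate AD-like cells. Its level there was 33.3 (26.6 to 41.1), 38.1 (33.8 to 42.8), 41.2 (32.4 to 51.6) and 42.3 CPM (40.2 to 44.5), and in the other mesenchymal cells 38.9, 45.0, 40.5 and 41.8. The ratios were 0.86 (0.68 to 1.07), 0.85 (0.74 to 0.97), 1.02 (0.78 to 1.31) and 1.01 (0.93 to 1.11). The highest mesenchymal levels were in EMP-like cells at 1, 1.5 and 3 months, with 60.5, 98.4 and 76.1 CPM, and in LMP-like cells at 16 months, with 60.2 against 58.2 in EMP-like cells. Chondrocyte-like cells had 17.4 to 18.1 CPM in the 4 libraries.

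Because both genes were counted by molecule, and not divided by length, their UMIs can be added. Plin2 made up 77.0%, 69.9%, 61.0% and 73.4% of the perilipin UMIs of AD-like cells and Plin3 22.8%, 29.7%, 35.7% and 26.0%. In the other mesenchymal cells Plin3 led in all libraries but that of 1 month, with 43.7%, 66.8%, 59.5% and 61.9%. Plin1, Plin4 and Plin5 together added little in either class.

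**Figure D2:**
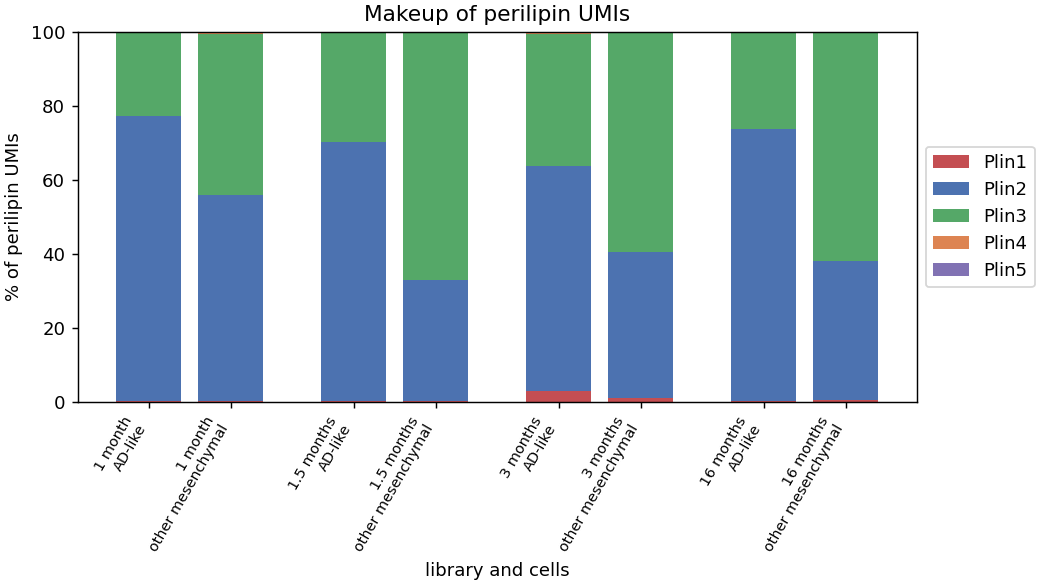
Stacked bars of the share of perilipin UMIs (percent, y axis) held by each of the 5 perilipins in AD-like and other mesenchymal cells of each library. Plin2 takes 61.0% to 77.0% of the bars of AD-like cells, and Plin1, which is visible at 3 months, 2.86% there.

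Plin1, the perilipin that coats the large droplet of white adipocytes and controls lipolysis at its surface, was close to absent. AD-like cells held 1, 3, 6 and 16 Plin1 UMIs in 1, 3, 2 and 10 cells at 1, 1.5, 3 and 16 months. The level was 0.39 CPM (0.0098 to 2.16), 0.40 (0.082 to 1.16), 3.29 (1.21 to 7.17) and 0.44 (0.25 to 0.71). At 3 months 5 of the 6 UMIs were in a single cell. The share of AD-like cells with a UMI was 0.32%, 0.24%, 0.47% and 0.28% as deposited. After thinning it was 0% of 315 cells, which allows a share of up to 0.952% by a floor of 3 cells and of 1.16% by the exact interval, then 0.16% (0.020 to 0.59), 0.27% (0.0069 to 1.51) and 0.085% (0.018 to 0.25). Neutrophil-like cells, which should lack the gene, had 0.11% and 0.21% in the libraries of 1 and 3 months and 0% of 342 cells in that of 16 months as deposited, at median depths of 11682, 6140 and 7270.5 UMIs, and 45 such cells at 1.5 months had none. After thinning, 0% of neutrophil-like cells had a UMI in all libraries but that of 3 months, which had 0.23%. The intervals of the 2 classes overlapped, and with 0 to 3 thinned AD-like cells carrying a UMI they do not settle whether the shares differed. No neutrophil-like cell had more than 1 Plin1 UMI. With mitochondrial limits of 10% and 30% in place of 5%, Plin1 in the AD-like cells at 16 months was at 1.72 and 1.73 CPM, from 71 and 70 UMIs. The other mesenchymal cells held 5, 2, 7 and 6 Plin1 UMIs.

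The other droplet genes of storing adipocytes, Plin4 and Cidec, were also rare, and so was Plin5. Plin4 gave 0, 1, 1 and 16 UMIs in AD-like cells, the 16 at 16 months lying in 14 of 3582 cells. The other mesenchymal cells gave 2, 2, 0 and 1, and at 16 months the counting interval of the ratio, 1.24 to 335, lay above 1. Cidec, which fuses droplets into larger ones, gave 0, 0, 1 and 2. Plin5 gave 0, 0, 0 and 4. For a gene with 0 UMIs the upper Poisson limit was 1.43 CPM in the AD-like cells at 1 month and 0.49 at 1.5 months. Outside AD-like cells, Plin4 was highest in mural-like cells at 1.5 months with 7.32 CPM, and Plin5 in endothelial-like cells with 2.04, 1.99 and 1.98 at 1, 3 and 16 months. These values rest on few UMIs. The Plin5 value at 1 month came from 3 UMIs, which is the floor, with an interval of 0.42 to 5.96. Neutrophil-like cells there had 1.06 CPM (0.70 to 1.53) from 28 UMIs, so the order of these 2 classes is not settled. Cidec had no UMI in any kept cell at 1 month.

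**Figure D3:**
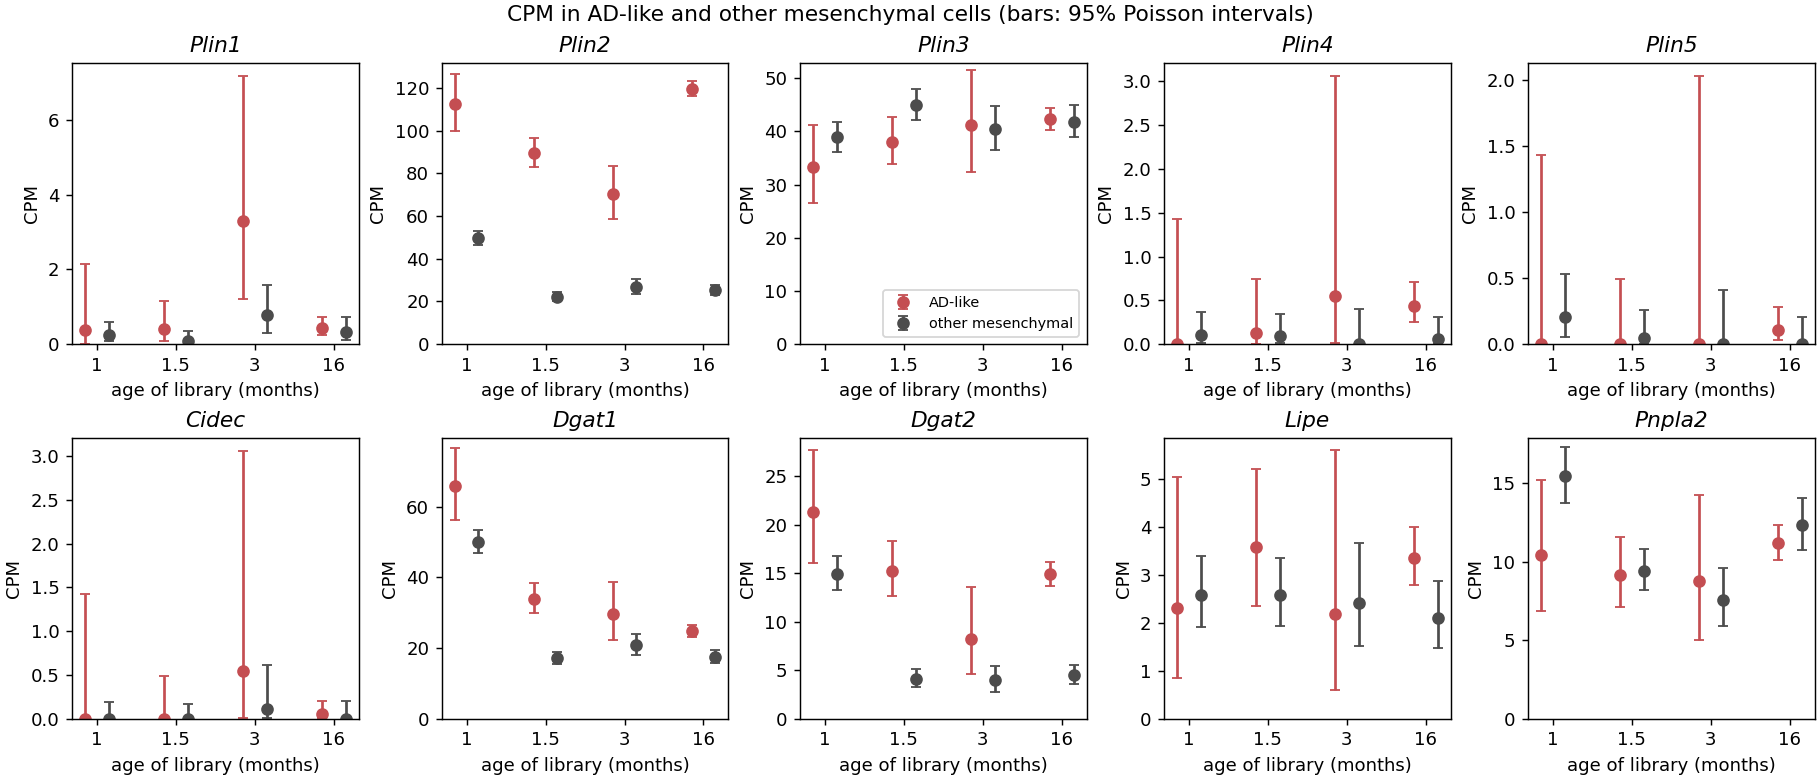
CPM (y axis, starting at 0) in AD-like cells (red) and other mesenchymal cells (grey) for each of the 10 genes, by age of the library in months (x axis, not to scale), with 95% Poisson intervals as bars. Plin2 is higher in the AD-like cells at every age, Plin3 and Pnpla2 lie together, and Plin1, Plin4, Plin5 and Cidec stay within 3.29 CPM.

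Plin1 was concentrated in a few cells. At 1 and 1.5 months no barcode had more than 1 Plin1 UMI. At 3 months 3 barcodes with at least 3 Plin1 UMIs (18, 6 and 5) held 29 of the 34 in the table, or 85.3%. At 16 months 6 such barcodes (32, 11, 8, 7, 3 and 3) held 64 of 96, or 66.7%. The threshold of 3 was chosen after the counts had been seen, so these cells are described and not tested.

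The 9 cells had some other adipocyte genes in common and lacked others. They held 40 to 1080 UMIs of Fabp4, a fatty acid binding protein, more than at least 99.4% of the AD-like cells of their library. Fabp4 was also a leading gene of the endothelial-like cluster in each clustering, so it was not particular to adipocyte-like cells here. Adipoq was at 8 to 161 UMIs and Lpl, lipoprotein lipase, at 30 to 258. The cells with 8 Adipoq UMIs at 3 months and 27 at 16 months lay below the 90th percentile of AD-like cells, 14 and 32. For Lpl that percentile was 17 and 68, and each of the 9 lay above it. Car3, a carbonic anhydrase abundant in fat, was at 0 in 2 of the cells and at 1 to 493 in the others. In these libraries Car3 was also a leading gene of the osteoblast-like clusters. It was at 739, 1197, 1393 and 1014 CPM in the other mesenchymal cells at 1, 1.5, 3 and 16 months, against 42.6, 44.6, 49.9 and 9.86 in AD-like cells. The cell with 32 Plin1 UMIs also had 17 of Plin4, 6 of Cidec, 11 of Pnpla2 and 12 of Plin2. The cell with 5 at 3 months had 22 of Plin2, 5 of Pnpla2 and 2 of Lipe. Over the 9 cells Plin4 ranged from 0 to 17 UMIs, Cidec from 0 to 6 and Lipe from 0 to 3, and Plin5 was at 0 in all 9. Among further adipocyte genes, Lep was at 0 in all 9, Retn at 0 to 4 UMIs and Cfd at 0 to 35.

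These cells were not gathered in the AD-like clusters. At 3 months they lay in the endothelial-like class, in an unnamed mesenchymal cluster and in the AD-like class. At 16 months 1 was AD-like, 1 lay with the granulocyte progenitors, 1 with the erythroid cells, and 3 had been left out because 6.12% to 6.82% of their UMIs were mitochondrial. Ptprc was at 0 in all 9, and Pecam1, an endothelial marker, at 0 in all but 1, which had 3 UMIs. Their depth ranged from 8709 to 27574 UMIs. At 16 months Plin4 or Cidec was seen in 7 of the 35 barcodes with a Plin1 UMI and in 1.04% of those without; at 3 months the values were 2 of 8 and 0.38%. Barcodes with deeper counts give more UMIs of any gene, and this was not corrected for.

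**Figure D4:**
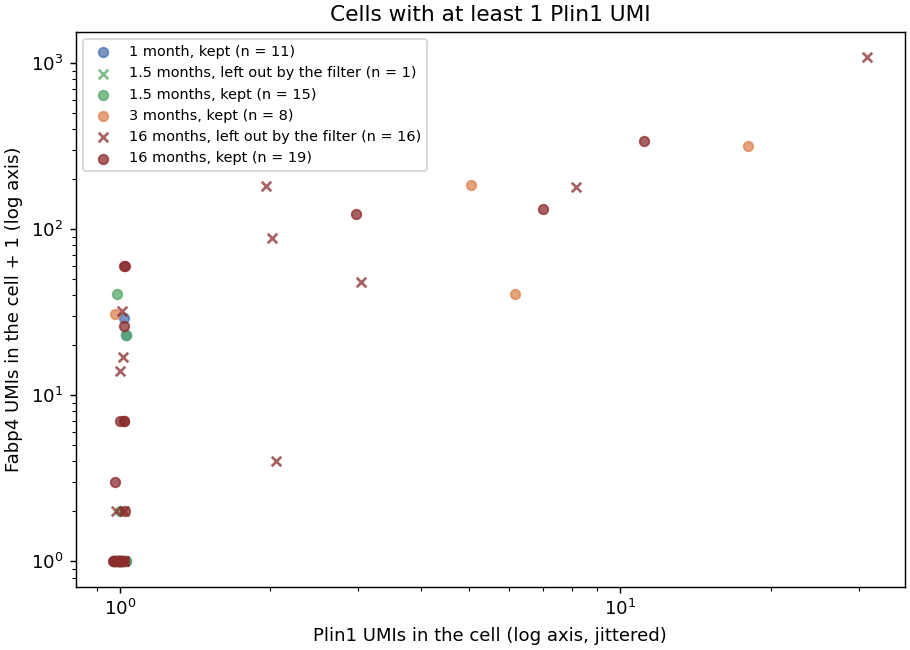
Plin1 UMIs (x axis, log scale) against Fabp4 UMIs plus 1 (y axis, log scale) in each barcode with at least 1 Plin1 UMI, coloured by library, with crosses for barcodes left out by the filter. The 9 barcodes with at least 3 Plin1 UMIs, from 3 and 16 months, hold 40 to 1080 Fabp4 UMIs.

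Dgat1 and Dgat2 complete triacylglycerol synthesis, and both were present in AD-like cells. Dgat2 was at 21.3 (16.0 to 27.7), 15.3 (12.6 to 18.3), 8.23 (4.61 to 13.6) and 14.9 CPM (13.6 to 16.2), against 14.9, 4.13, 3.96 and 4.46 in the other mesenchymal cells. The ratio passed 2 at 1.5, 3 and 16 months, with 3.69 (2.77 to 4.93), 2.08 (1.06 to 3.89) and 3.33 (2.63 to 4.26), but not at 1 month, with 1.43 (1.05 to 1.91). Without the 1 month library, Plin2 and Dgat2 would both meet the rule for all libraries. The Dgat2 value at 3 months rests on 15 UMIs, and its log2 difference, 1.06, went under 2-fold with size factors (0.81) and with scaling without the most abundant genes (0.83).

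Dgat1 had 65.8, 33.8, 29.6 and 24.8 CPM in AD-like cells and 50.1, 17.1, 20.8 and 17.5 in the other mesenchymal cells. Its ratios stayed under 2, at 1.31 (1.11 to 1.55), 1.97 (1.68 to 2.32), 1.43 (1.03 to 1.94) and 1.41 (1.24 to 1.61). The 1 month library had higher Dgat1 in all mesenchymal classes. Erythroid-like cells, the lowest class of at least 50 cells for Dgat1 there, stood at 39.2 CPM at 1 month and at 9.72, 11.1 and 6.11 in the later libraries, and for Dgat2 at 11.0, 0, 3.33 and 5.03. Neutrophil-like cells, which were 1859 of the 8308 kept cells at 1 month, had 393 CPM of Dgat1 and 106 of Dgat2, the highest of any class in that library. The part of free RNA in the mesenchymal values of Dgat1 and Dgat2 was not tested.

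At 3 and 16 months neutrophil-like cells also led, with 221 and 350 CPM of Dgat1 and 78.0 and 67.9 of Dgat2. The share of neutrophil-like cells with a Dgat1 UMI after thinning was 68.4%, 48.9% and 62.2% at 1, 3 and 16 months, and that of AD-like cells 16.5%, 7.38% and 6.98%. Granulocyte progenitors, which give rise to neutrophils, had 67.4, 26.9 and 25.6 CPM of Dgat2, below the neutrophil-like cells of the same library each time.

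The lipases were low in AD-like cells. Pnpla2, which starts lipolysis, was at 10.4 (6.89 to 15.2), 9.16 (7.12 to 11.6), 8.78 (5.02 to 14.3) and 11.2 CPM (10.1 to 12.3), and the other mesenchymal cells had 15.5, 9.44, 7.59 and 12.3. All 4 ratio intervals included 1, with ratios of 0.68, 0.97, 1.16 and 0.91. Pnpla2 was higher in endothelial-like cells, with 35.4, 33.8 and 66.8 CPM at 1, 3 and 16 months, and in mural-like cells, with 82.9 (57.4 to 116) at 1.5 months, the library that held at least 50 of them. Osteocyte-like cells had 25.5 at 1.5 months.

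Lipe, the next enzyme of the chain, was at 2.32, 3.58, 2.19 and 3.35 CPM in AD-like cells, from 6, 27, 4 and 122 UMIs. The other mesenchymal cells had 2.58, 2.58, 2.42 and 2.09. The ratio interval lay above 1 at 16 months (1.60, 1.10 to 2.37) and included 1 in the other libraries. Endothelial-like cells had 6.80, 20.5 and 11.2 CPM at 1, 3 and 16 months, the highest of all classes of at least 50 cells at 3 and 16 months.

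The AD-like class was made of 2 clusters at 1 and 1.5 months, 1 at 3 months and 3 at 16 months. The 3 month and 16 month libraries were clustered on their own, so their clusters are not the same as the earlier ones. At 16 months the cluster led by Ccl2, Ccl7, Cxcl1 and Il6 (1583 cells) had 104 CPM of Plin2, 35.1 of Plin3 and 17.8 of Dgat2. The cluster led by Cxcl13 (1010 cells) had 138, 47.4 and 11.3, and the one led by Gm12216 and Hspb1 (989 cells) 133, 51.5 and 12.5. At 1.5 months the larger cluster (900 cells, Cxcl12, Adipoq and Ccl2) had 83.6 of Plin2, 34.0 of Plin3 and 17.4 of Dgat2, and the Esm1 cluster (331 cells) 107, 49.8 and 9.25. In these 2 libraries the Ccl2 cluster had the lower Plin2 and Plin3 and the higher Dgat2. At 1 month Plin2 stood the other way, at 117 CPM (103 to 131) in the Ccl2 cluster (280 cells) and 78.7 (48.7 to 120.4) in the Esm1 cluster (35 cells), with intervals that overlapped. Plin1 stayed at or below 1.03 CPM in each of these 5 clusters.

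With age, 0 of the 6 members with enough UMIs met the rule for a change at 16 months in AD-like cells (outside the other 3 libraries and at least 2-fold from their mean). Of all genes, 10.8% met it upward and 7.79% downward. Plin2 at 16 months was 1.70 times its level at 3 months (1.43 to 2.05), and it lay within the interval of the 1 month value, which reached 126 CPM. Osteoblast-like cells also had more Plin2 at 1 month, 38.6 CPM against 7.04, 10.2 and 7.43 later, and the part of free RNA was not tested. The 16 month library listed 31054 genes and the others 27999. Dgat1 was lowest at 16 months, and its interval at 3 months, 22.3 to 38.7 CPM, held the 16 month value. Lipe and Dgat2 at 16 months were within the range of the other libraries, and Plin3 and Pnpla2 were just above it, inside the intervals of the 3 month values.

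Other genes of droplet metabolism were read from lists of 36 genes, 26 of which had enough UMIs in all libraries. Soat1, which makes sterol esters, was at least 2-fold higher in AD-like cells in all 4 libraries, a rule met by 6.08% of all genes. Lpin3, Mgll and Abhd6 were at least 2-fold lower, 3 of the 26 against 4.43% of all genes.

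Among the 7 genes of lipolysis and its control, 2 were at least 2-fold lower in AD-like cells in all libraries. Mgll, monoacylglycerol lipase, which finishes the breakdown, was at 10.1, 3.85, 4.39 and 2.14 CPM against 41.5, 38.7, 41.5 and 59.7 in the other mesenchymal cells. At 16 months the Mgll ratio was 0.036 (0.028 to 0.045). Abhd6, a related lipase, was at 3.10, 1.06, 0.55 and 0.25 against 7.88, 8.97, 8.80 and 3.64. Other genes of the list ran higher without reaching 2-fold in all libraries. G0s2 had ratios of 1.50, 7.45, 3.21 and 6.02, Abhd5 of 1.61, 2.39, 2.26 and 1.99, and Lipa of 1.68, 1.60, 1.04 and 1.30. Pde3b had 0.54, 0.61, 0.37 and 1.41. Pnpla2, Lipe and Mgll act in sequence. In AD-like cells the last of them was at least 2-fold below the other mesenchymal cells in all libraries. The Pnpla2 ratios were 0.68, 0.97, 1.16 and 0.91, with intervals that included 1.

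Of 7 triacylglycerol synthesis genes, 0 were higher and 1, Lpin3, was lower, at 0.39, 0.13, 1.10 and 0.30 CPM against 3.66, 4.51, 4.51 and 1.87. Of 4 genes of droplet formation and 6 of fatty acid synthesis, 0 met the rule in either direction. Of the 2 genes of sterol esters, Soat1 was higher, with 59.6, 89.8, 72.4 and 143 CPM against 12.2, 16.2, 15.9 and 31.2, and Nceh1, which splits those esters, had ratios of 0.86, 0.27, 0.23 and 0.13, below 0.5 in all libraries but that of 1 month. The lists' median log2 differences were 0.53 for synthesis of triacylglycerol, 0.45 for droplet formation, 0.53 for lipolysis, 0.10 for fatty acid synthesis and 0.13 for sterol esters, the last over 2 genes that lay on either side of 0, beside 0.24 for all genes.

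Lpl and Pparg gave the reference for adipocyte genes that the AD-like cells did express. Lpl was at 2088, 2599, 1901 and 3100 CPM and Pparg, the regulator of fat cell formation, at 60.4, 75.5, 52.7 and 64.7. Fabp4 was at 33.3, 21.6, 144 and 152 CPM, and met the rule for a higher level at 16 months. Of its 263 UMIs at 3 months, 184 were in a single cell, the AD-like cell with 5 Plin1 UMIs. Fabp4 was seen in 11.4%, 4.31%, 8.73% and 25.3% of AD-like cells as deposited.

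The genes closest in pattern were found over 43 points, each a named class of at least 50 cells in a library, among 12225 genes. Points of 1 library share its depth and its free RNA, so the correlations are descriptions. For Plin2 they were Tmsb4x, Rhog and Unc93b1 (r = 0.92, 0.91 and 0.89), for Dgat1 Ipcef1, G0s2 and Cxcr2 (0.90, 0.90 and 0.90) and for Dgat2 G0s2 and Ffar2 (0.90 and 0.88). G0s2, an inhibitor of Pnpla2, thus stood beside both synthesis genes. For Plin3 the genes were Aifm2 and Dstn (0.77 and 0.77), for Lipe Tbc1d22a, Gnai2 and Sptlc2 (0.80, 0.78 and 0.77) and for Pnpla2 Aggf1, Il2rg and Dazap2 (0.79, 0.78 and 0.78). Plin1 reached 10 CPM only in the 3 month endothelial-like class, through the cell with 18 UMIs, and its closest genes reached an r of 0.64 to 0.66. Plin4, Plin5 and Cidec were too low to be placed.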

How the data were processed

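Td+ endosteal marrow cells of 4 ages were measured with 10x Chromium libraries. The deposited values are raw UMI counts per gene and cell, made by the authors with Cell Ranger 3.0.2 on a modified mm10 genome; the submitters' notes also name Seurat 2. Here the study's filter was applied: 200 to 6000 genes per cell, and no more than 5% of UMIs from mitochondria. The 1 and 1.5 month libraries were integrated and the others clustered separately (Seurat 5.3.0 in R 4.3.3, 2000 variable genes without the members and markers, 30 components, resolution 0.8), and only 1 level of clusters was made. Clusters were named from at least 3 markers. The limit on genes was the only doublet treatment, and leaving out the 8% with the highest Scrublet scores (scanpy 1.11.5) was an alternative.

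UMIs were summed per class and library and given as CPM with exact Poisson intervals, shares with exact binomial (Clopper-Pearson) intervals, and ratios with exact conditional intervals, all at 95% (scipy 1.17.1). With 1 library per age no test across genes was run, and a gene was called at a fold of 2 where it had at least 20 UMIs over the mesenchymal cells; a count of 0 was read against a floor of 3. On counts simulated for AD-like against other mesenchymal cells in each library (12457 to 14057 genes, 200 raised 4-fold), the 2-fold call found 98% to 100% of the raised and 0.69% to 3.78% of the unchanged genes. Smaller rises were not simulated, so these rates do not cover calls close to 2-fold. All 10 members are named, other genes by list when 2-fold in all libraries, and the 3 genes of most similar log2(CPM + 1) pattern for each member reaching 10 CPM in a class. A few genes that these rules name are not reported here. The members, lists and rules were chosen with earlier results of these data known. Positions are from GENCODE and promoters from RefSeq, both on the mm10 assembly. The alternatives tried were 10 planned and 5 added.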

Additional observations from a re-analysis of the deposited data

Results flagged for a closer look

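Barcodes that the filter left out, 109, 292, 336 and 3086 at 1, 1.5, 3 and 16 months, carried more of 3 members than the kept cells of the same library. They were left out mainly for mitochondrial UMIs above 5%. Pnpla2 was at 40.1 CPM in those of 1.5 months (77 UMIs), 69.9 in those of 3 months (116 UMIs) and 43.8 in those of 16 months (1118 UMIs), against 7.04, 12.8 and 14.5 in the kept cells. Plin4 was at 9.64 CPM at 3 months (16 UMIs, 95% interval 5.51 to 15.7) and 5.48 at 16 months (140 UMIs, 4.61 to 6.47), against 0.29 and 0.38. Plin1 was at 2.31 CPM at 16 months (59 UMIs, 1.76 to 2.98), against 0.55, and 43 of those UMIs lay in 3 barcodes. The part of damaged cells in these values was not tested.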

How the results depend on the processing

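Plin2 alone met the 2-fold rule in all libraries, and 0 members met it downward, with clustering resolutions of 0.5 and 1.2, cells chosen by Adipoq UMIs, means over cells, scaling without the most abundant genes, mitochondrial limits of 10% and 30%, without doublets, with no minimum, and without the RNA-poor clusters or the Plin1-rich cells. Thinning to 3000 UMIs left 0 members higher, and so did median-of-ratios size factors, since Plin2 fell to a log2 difference of 0.98 at 3 months in the first and 0.89 at 1 month in the second. Size factors lowered the log2 differences of all genes by 0.24 to 0.30 and leaving out the most abundant genes lowered them by 0.16 to 0.30, and in each case 3 of 24 member values, none of them 2-fold, changed sign. Without the 1 month library the count was 2, with Dgat2. With no minimum 1 member, Plin5, changed at 16 months, on 4 UMIs. The share of AD-like cells with Plin1 went to 0% at 1 month and 0.085% at 16 months after thinning, and at 16 months it was 0.49% and 0.51% with mitochondrial limits of 10% and 30%. Of 312 recomputed log2 differences of the 6 measurable members, 37 left the counting interval of the main value and 0 called values changed sign. The limits of 30%, the clusters and cells left out and the libraries left out were chosen after seeing the data. No paired analysis was possible because each age had 1 library. Counts at or below 3 UMIs set the limit for Plin1, Plin4, Plin5 and Cidec.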
